A study of Mus musculus with 12 samples.

Results

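The small leucine-rich proteoglycans are secreted matrix proteins, and 9 of their genes were followed here in the blood of injured mice. They are Dcn (decorin), Bgn (biglycan), Aspn (asporin), Fmod (fibromodulin), Lum (lumican), Prelp (prolargin), Omd (osteomodulin), Ogn (osteoglycin) and Podn (podocan). The genes were chosen by name as a protein family, and all 9 were found among the 37583 genes of the deposited table. Blood came from wild-type mice given a burn together with a tenotomy, the cutting of a tendon, a combined injury (burn/tenotomy) used as a model of heterotopic ossification, the formation of bone in soft tissue. Cells were enriched from whole blood on a microfluidic chip (iChip), and the labels call the material circulating mesenchymal progenitor cells (cMPCs) and blood cells. Total RNA was sequenced in 12 libraries, 4 each from 6 h (6h), 1 day (Day1) and 7 days (Day7) after injury. All 3 groups share the genotype and the injury, and no uninjured group was analysed here. Whether replicates came from different mice is not in the labels. The p-values therefore reflect only how far these libraries spread, and part of that spread may be technical.

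Each protein of this family carries a tandem array of leucine-rich repeats that binds collagen, and most members carry chondroitin, dermatan or keratan sulfate chains. Decorin, fibromodulin and lumican set the diameter and spacing of collagen fibrils in tendon, skin and cornea. Several members also bind TGF-beta, and biglycan and decorin released from damaged matrix can act as ligands of Toll-like receptors. By sequence, decorin, biglycan and asporin form class I, fibromodulin, lumican, prolargin and osteomodulin class II, osteoglycin belongs to class III and podocan to class V.

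Fmod was the 1 member that passed the test between Day1 and Day7, and Prelp came next to it in adjusted p. They are neighbours in RefSeq's order of protein-coding genes, next to Optc (opticin), another gene of the family, so their promoters are shown. Each sequence is the 250 bases before the transcript start, from RefSeq on build GRCm38.p6, written 5′ to 3′ on the gene's strand. Fmod lies at chr1:134037004-134037253 (plus strand) and Prelp at chr1:133921402-133921651 (minus strand). Capitals mark the 5-letter motifs CAGAC, bound by SMAD proteins, and CCAAT, a common promoter element, on either strand.
Fmod: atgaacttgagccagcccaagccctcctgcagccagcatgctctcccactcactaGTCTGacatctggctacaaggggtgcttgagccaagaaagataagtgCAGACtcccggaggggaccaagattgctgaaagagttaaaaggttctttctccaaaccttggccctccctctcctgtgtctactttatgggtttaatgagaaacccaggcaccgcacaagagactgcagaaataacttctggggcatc
Prelp: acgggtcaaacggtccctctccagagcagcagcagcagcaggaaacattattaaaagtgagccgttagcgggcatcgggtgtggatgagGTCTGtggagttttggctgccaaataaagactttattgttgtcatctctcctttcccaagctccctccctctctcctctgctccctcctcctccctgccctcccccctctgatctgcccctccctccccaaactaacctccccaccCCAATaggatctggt
CAGAC began 195 and 148 bases before the start of Fmod and 161 bases before that of Prelp, and CCAAT began 15 bases before the start of Prelp. No 2 of these motifs overlapped. Of 32851 promoters of the same length, 42.2% held CAGAC and 33.8% held CCAAT on either strand. TATAAA (in 12.4% of promoters), TGANTCA (6.75%) and GGGCGG (32.7%) were searched as well and did not occur in these 2 windows. A match is a description of the letters only.

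Expression is given in the deposited values, which are whole reads scaled to an effective library size. Library totals ran from 5098395 to 12379041 reads, haemoglobin genes took 16.1% to 70.3% of a library, and 7631 to 16647 genes had at least 1 read. 6h replicate 1 and Day7 replicate 3 had the fewest genes detected (7631 and 7635). Y-linked genes (Uty, Kdm5d, Ddx3y and Eif2s3y were counted) had reads in 6h replicates 3 and 4 and Day1 replicates 2, 3 and 4, and in no Day7 library, so time and Y-linked status were unevenly mixed. Of 15 markers of fibroblasts and mesenchymal cells, all 15 had reads, but the defining receptor Pdgfra was at most 2.04 in any library. All 12 mesothelial markers had reads in every group, and the leukocyte markers summed to 145 to 5631. In such bulk libraries fewer cells of a type and less RNA per cell cannot be told apart.

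Dcn made up most of the family's RNA in every library, and none of its differences between times passed the test over all genes. Dcn was 169.9, 10.6, 769 and 371 in 6h replicates 1 to 4, 189, 928, 612 and 866 at Day1, and 217, 44.0, 4.32 and 457 at Day7. The 6h values spanned nearly the whole range of the data, and 3 of 4 Day1 libraries lay above every Day7 library. Per kilobase of the gene length in the table, Dcn held 77.6% to 91.3% of the summed level of the 9 members in the 6h libraries, 87.3% to 89.9% in those of Day1 and 85.1% to 93.0% in those of Day7. The 91.3% and 93.0% are from 6h replicate 2 and Day7 replicate 3, which held only 28 and 7 reads of Dcn. By mean level per length, Dcn ranked 43rd of the 11211 genes tested at Day1, 149th at 6h and 510th at Day7. Of the members tested, the next in that order were Prelp (1103rd), Bgn (1270th) and Fmod (1444th) at Day1, whose mean levels per kb were 15.3 ± 11.0, 13.0 ± 10.1 and 11.1 ± 6.01 (SD, n = 4) against 337 ± 174 for Dcn. These 3 neighbours did not differ beyond their spread.

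**Figure D1:**
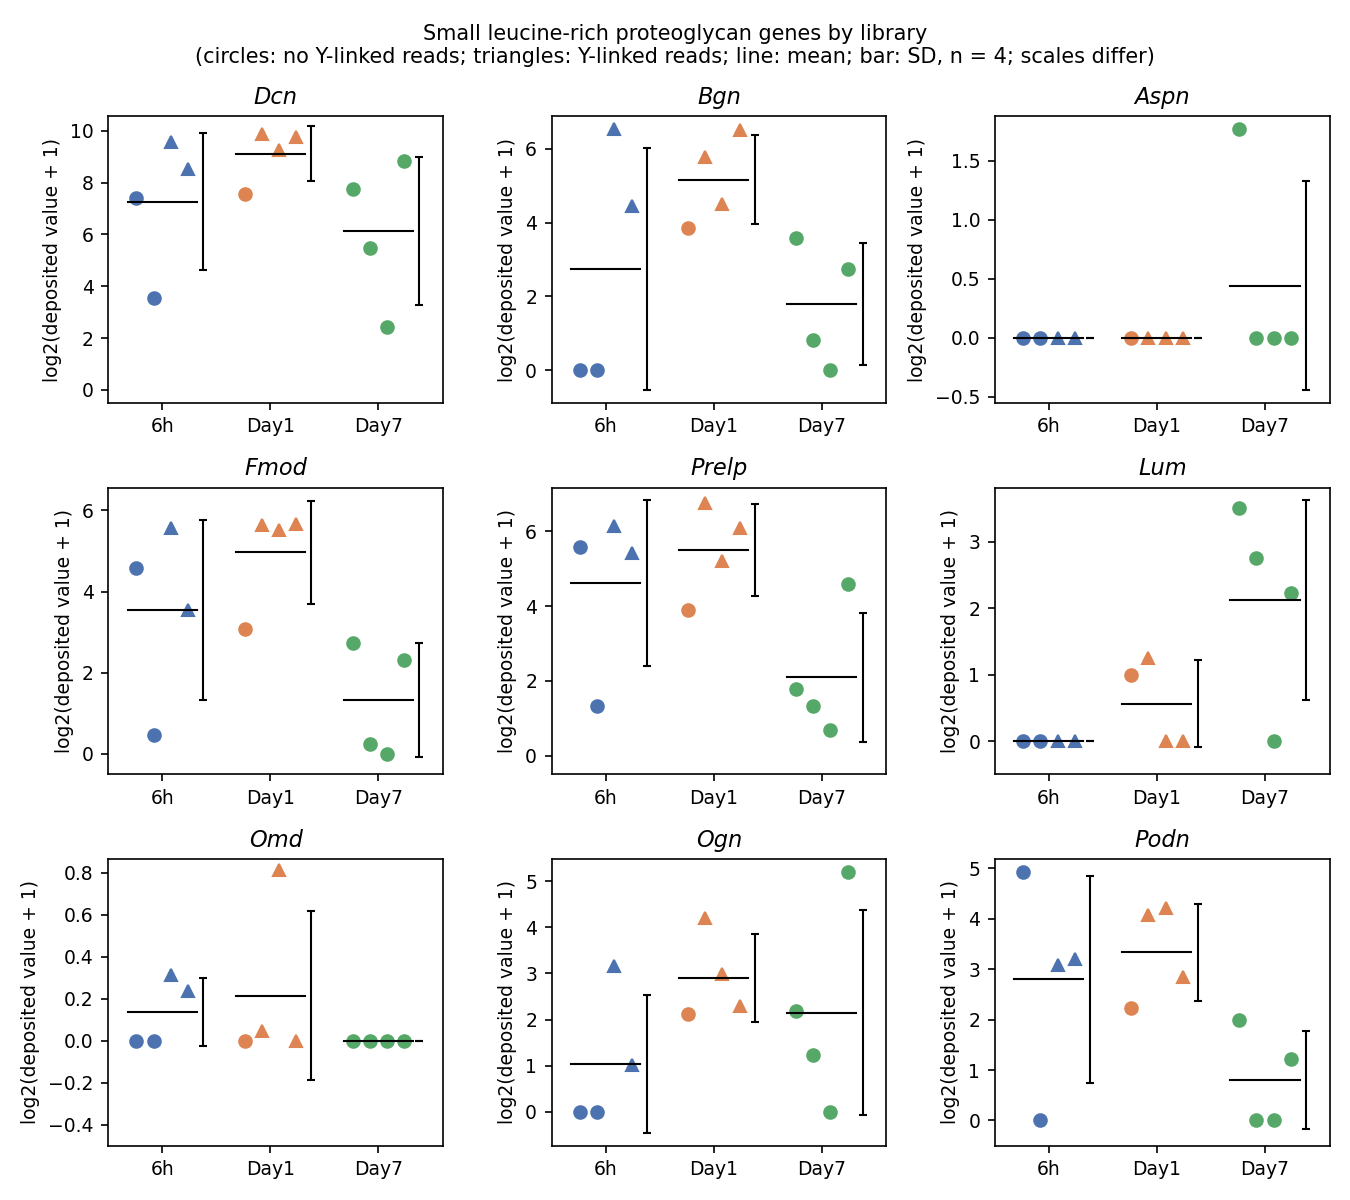
Level of each of the 9 genes by library, as log2(deposited value + 1), with the mean (line) and SD (bar) of 4 libraries per time; triangles are libraries with Y-linked reads. Lum is at 0 in all 4 libraries of 6h, whereas Fmod, Bgn and Podn have every Day7 library below every Day1 library.

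Between Day1 and Day7, Fmod fell, and 5 other members had lower mean log2 values at Day7 without passing the test over all genes. The test was limma on log2(value + 1) with Benjamini-Hochberg adjustment over 11211 genes that reached a value of 1 in at least 4 libraries. Of the 9 members 7 were tested. Aspn and Omd did not reach the filter, and Lum reached it with 3 Day7 libraries and 1 Day1 library. Fmod was the 1 of 7 members called lower at an adjusted p under 0.05 (3.59% of all genes tested were), and 0 of 7 were called higher (2.19% of all genes). At an unadjusted limma p under 0.05, 5 of 7 members were lower (18.0% of all genes), and 6 of 7 had a log2 difference below 0 (61.8% of all genes). Fmod, Bgn and Podn had groups that did not overlap, 3 of 7 members, as did 14.5% of all genes in that direction. The members' median log2 difference was -2.98, beside -0.48 over all genes tested. With a Y-linked term in the fit these medians were -0.79 and -0.27, and without Day7 replicate 3 they were -2.27 and -0.32.

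Fibromodulin, a class II member abundant in tendon, regulates collagen cross-linking and fibril growth. Fmod was 7.42, 49.0, 44.6 and 50.02 in Day1 replicates 1 to 4 and 5.71, 0.191, 0 and 3.99 in Day7 replicates 1 to 4. Day1 replicate 1 was the low library of its group and still lay above all Day7 libraries. At 6h Fmod was 23.2, 0.379, 46.8 and 10.6, a range that held 2 of 4 libraries of each other time. The log2 difference between Day1 and Day7 was -3.65 (SE 1.02, limma adjusted p = 0.0407). That call was lost without Day1 replicate 2 (limma adjusted p = 0.0980), Day1 replicate 3 (0.101), Day1 replicate 4 (0.104), Day7 replicate 2 (0.100), Day7 replicate 3 (0.0973) or Day7 replicate 4 (0.0640). It was kept without any other library (limma adjusted p = 0.0222 to 0.0359). When the fit held a Y-linked term the difference was -1.96 (limma adjusted p = 0.420), and over all 27 alternatives the adjusted p ran from 0.00451 to 0.420. The only Day1 library without Y-linked reads was replicate 1, so no comparison with replicates within libraries of 1 Y-linked status was possible.

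Prolargin, also of class II, anchors basement membranes to the underlying collagen. Prelp was 14.0, 107, 36.0 and 67.5 at Day1 and 2.41, 1.53, 0.617 and 23.3 at Day7. Only Day7 replicate 4 lay within the Day1 range. At 6h Prelp was 47.0, 1.51, 70.2 and 42.3. The log2 difference between Day1 and Day7 was -3.39 (SE 1.03), just short of the threshold (limma adjusted p = 0.0503). It passed in 6 of 12 fits that left out 1 library, namely without any 1 of 6h replicates 1 to 4 (0.0277 to 0.0495), Day1 replicate 1 (0.0460) or Day7 replicate 4 (0.0466), and over 27 alternatives its limma, edgeR or DESeq2 adjusted p ran from 0.00511 to 0.492. With a Y-linked term in the fit the difference was -1.71.

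Biglycan, the class I relative of decorin, is expressed in bone and vessel walls as well as in fibrous tissue. Bgn had 0 reads in 6h replicates 1 and 2 and values of 91.5 and 20.8 in 6h replicates 3 and 4, the 2 libraries of that time with Y-linked reads. It was 13.5, 54.5, 21.7 and 89.9 at Day1 and 11.01, 0.766, 0 and 5.65 at Day7, so every Day1 library lay above every Day7 library. The log2 difference of -3.38 (SE 1.20) between Day1 and Day7 had a limma adjusted p of 0.0762. It passed without Day7 replicate 1 (limma adjusted p = 0.0436), was -0.47 when the fit held a Y-linked term, and had an adjusted p of 0.0102 to 0.868 over 27 alternatives.

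Podocan, the class V member, binds collagen in vessel walls and skin. Podn was 3.71, 15.9, 17.5 and 6.15 at Day1 and 2.96, 0, 0 and 1.33 at Day7, again without overlap. Its highest value of all, 29.5, was in 6h replicate 1, where 6h replicate 2 had 0 and the other 6h libraries 7.48 and 8.15. The log2 difference between Day1 and Day7 was -2.54 (SE 0.97, limma adjusted p = 0.0918). For Dcn the corresponding difference was -2.98 (SE 1.21, limma adjusted p = 0.109). It was -1.74 without Day7 replicate 3, which held 7 Dcn reads, and -0.79 with a Y-linked term (limma adjusted p = 0.799).

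**Figure D2:**
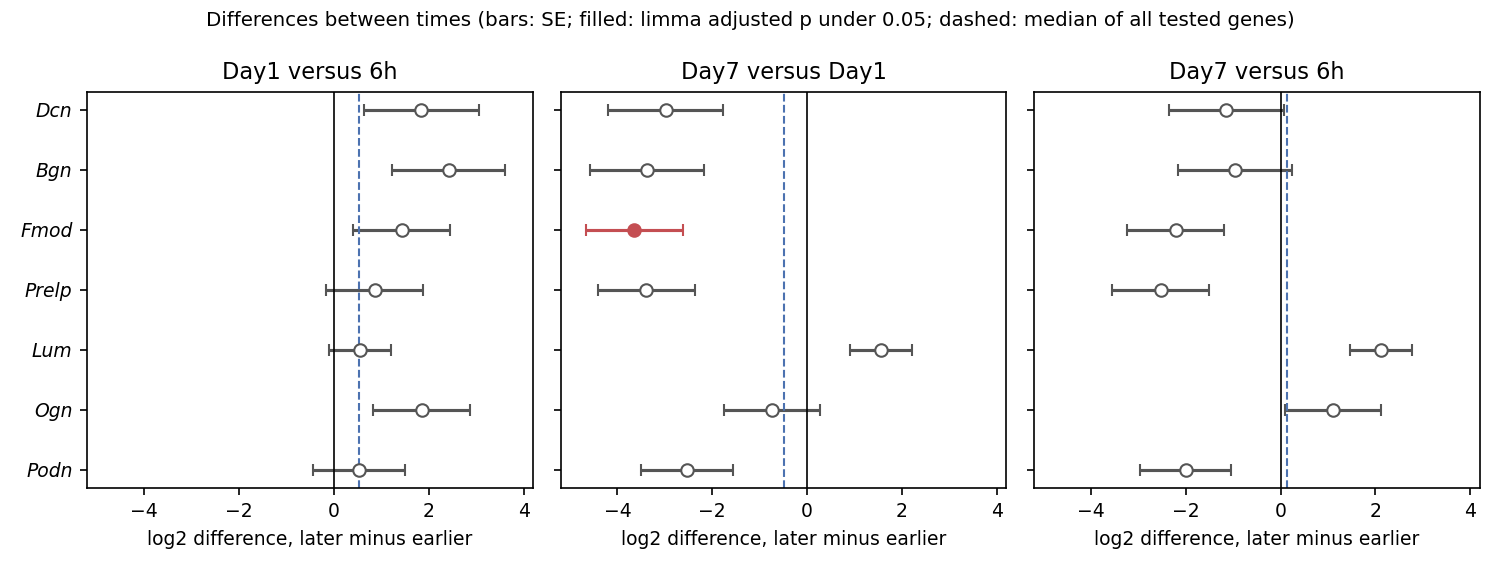
Log2 difference (later minus earlier, on the log2(value + 1) scale) of the 7 tested members in each comparison, with SE bars, a filled point where the limma adjusted p was under 0.05, and a dashed line at the median of all 11211 genes. Fmod at -3.65 between Day1 and Day7 is the 1 filled point, and Lum lies to the right of 0 in all 3 panels.

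The deposited scaling bears on these calls. Scaled to all reads of a library, 5 of 7 members were lower at Day7 than at Day1 in limma (Dcn, Bgn, Fmod, Prelp and Podn), but so were 35.3% of all genes. There 10 genes were called higher and 3953 lower, against 245 and 403 with the deposited values. Scaled to reads outside haemoglobin, the same 5 members were lower, as were 31.5% of all genes (21 higher, 3528 lower), and with median-of-ratios scaling Fmod and Prelp passed (152 higher, 632 lower over all genes). The median log2 difference of all genes was -0.48 with the deposited values, -1.78 scaled to all reads, -1.92 outside haemoglobin and -0.75 with median-of-ratios scaling. Relative to these medians Fmod lay at -3.16, -3.13, -3.40 and -3.16. Prelp lay at -2.91, -3.20, -3.22 and -2.97 and Dcn at -2.50, -3.15, -2.87 and -2.64. DESeq2 on the recovered reads called Fmod, Prelp and Podn lower (11.2% of all genes were). With edgeR's quasi-likelihood test 0 of 7 members were called, but so were only 0.00892% of all genes.

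**Figure D3:**
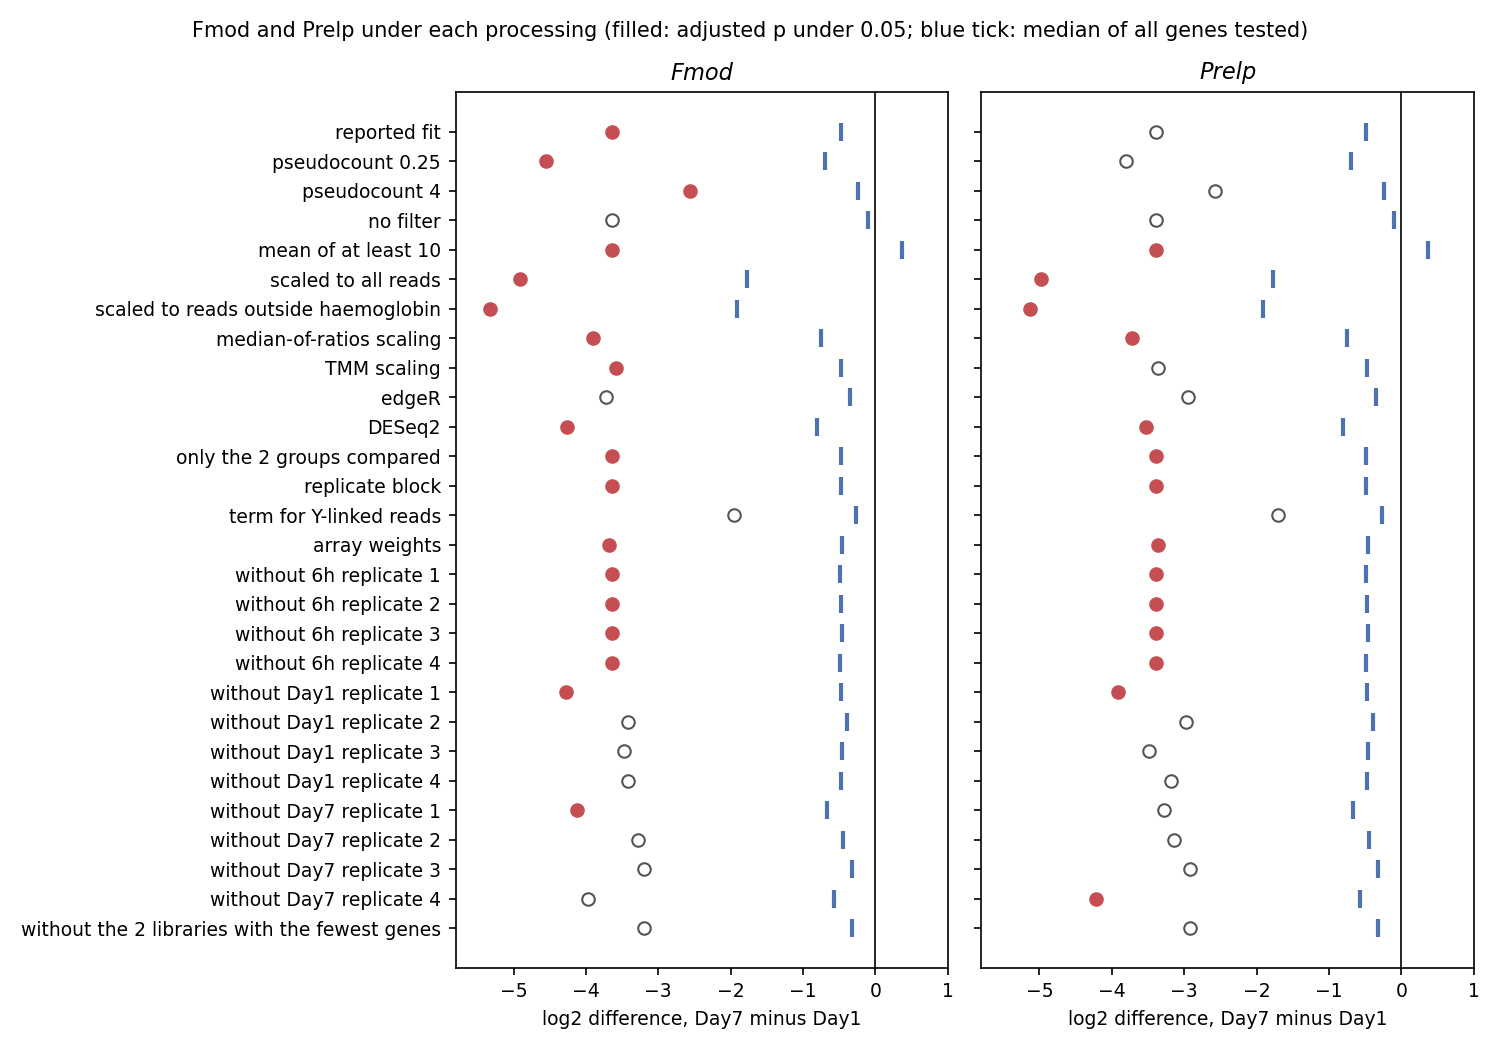
Log2 difference of Fmod and Prelp between Day1 and Day7 under the reported fit and 27 alternatives, filled where the adjusted p was under 0.05, with the median of all genes tested as a blue tick. Fmod is filled in 17 of 27 alternatives and Prelp in 14 of 27, and every point lies below 0.

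Mesothelial markers were lower at Day7 as well. The 12 markers, among them Msln (mesothelin), Upk3b and Krt19, summed to 28.0 to 2439 in the 6h libraries, 596 to 3025 in those of Day1 and 3.70 to 296 in those of Day7, and 9 of the 12 fell between Day1 and Day7 in limma, beside 3.59% of all genes. None of the 12 was at 0 over any group. The 15 fibroblast and mesenchymal markers summed to 89.0 to 1125 (6h), 175 to 969 (Day1) and 372 to 1517 (Day7). At Day7, Gsn (gelsolin) alone gave 361 to 1014. Of their 11 tested members 3 fell between Day1 and Day7, beside the same 3.59%, and the median log2 difference of the 11 was -1.65 (-0.48 over all genes). Fap, Pdgfrb and Twist2 were at 0 over the Day7 group. Keratinocyte markers summed to 72.5 to 424 at Day1 and 0 to 27.4 at Day7, and 2 of 6 tested fell, with Krt1 and Krt5 at 0 throughout. Tendon markers summed to 8.40 to 52.3 and 0 to 7.85, and the 1 tested (Tnxb) fell. Of the smooth muscle and of the endothelial markers, 0 of 5 tested were called. The part of any of these cell types in the fall of Fmod was not tested.

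**Figure D4:**
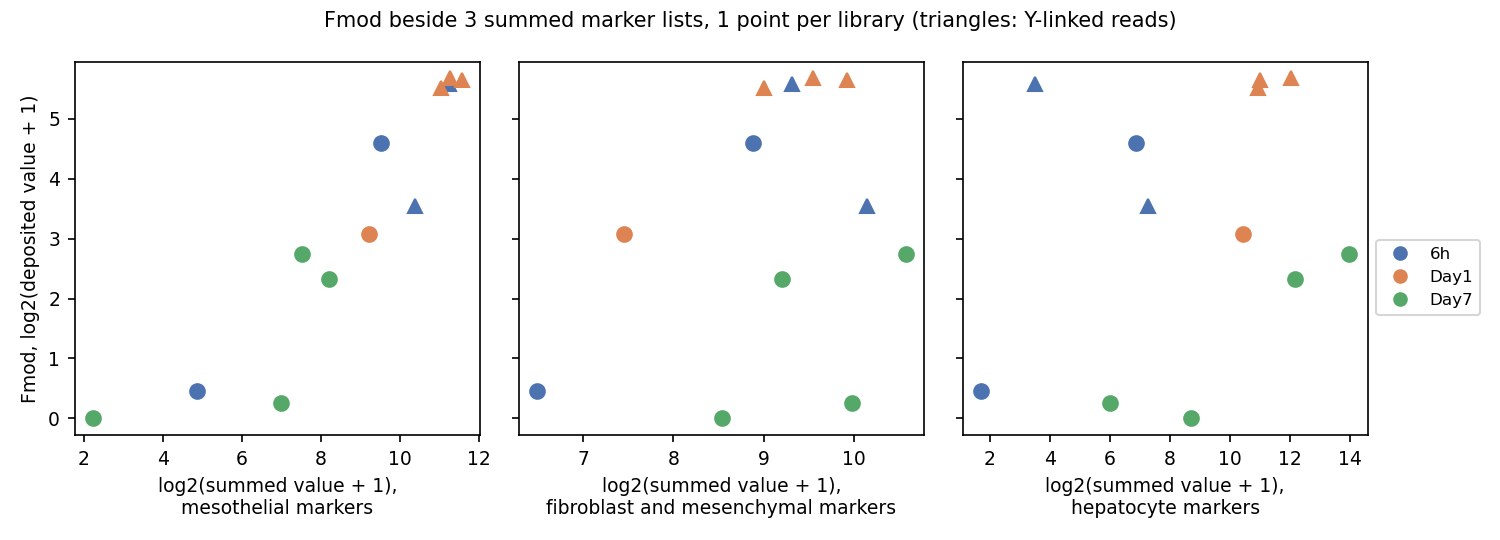
Fmod against the summed level of mesothelial, fibroblast and mesenchymal, and hepatocyte markers, each as log2(value + 1), with 1 point per library coloured by time and triangles for libraries with Y-linked reads. The Day7 libraries have mesothelial sums of at most 296 and Fmod of at most 5.71. Their fibroblast sums of 372 to 1517 reach above the Day1 range, with Gsn alone at 361 to 1014.

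Genes of like pattern were taken as those with the highest Pearson's r of log2(value + 1) over the 12 libraries, among 4355 or 4356 genes with a mean of at least 10. These r values are a description, since the libraries share the time groups and the scaling. For Fmod they were Lrrn4, a mesothelial marker (0.98), Mfap5, a microfibril protein of fibroblasts (0.98), and Nbl1, an antagonist of BMP ligands (0.97). For Dcn they were Tmem119 (0.97), Igfbp5, which binds insulin-like growth factors (0.97), and the mesothelial marker Upk3b (0.96). For Prelp they were the mesothelial marker Nkain4 (0.97), Cys1 (0.95) and Timp2, an inhibitor of metalloproteinases (0.95). Bgn was most like C2, a complement component, Rspo1, a Wnt agonist, and Enpp2, autotaxin (0.96 each). Podn was most like Adamtsl1 (0.94), Ier5l (0.93) and Lims2 (0.92), and Ogn like Prpf8 (0.91), Dync1i2 (0.89) and Fah (0.88). Lum was most like Stat5b (0.87), 1110004F10Rik (0.86) and Tm4sf4 (0.86).

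Lumican, the class II member best known from the cornea and skin, had its highest mean at Day7. Lum had 0 reads in all 4 libraries of 6h, 8 and 44 reads in Day1 replicates 1 and 2 and 0 in the other Day1 libraries. At Day7 it had 150, 30, 0 and 11 reads in replicates 1 to 4, or values of 10.3, 5.74, 0 and 3.66. Over pooled reads Lum was at least 75.2-fold higher at Day7 than at 6h, against a floor of 3 reads over the 6h group, and at least 40.0-fold higher without Day7 replicate 1, which held 150 of the 191 reads. Scaled to all reads these bounds were 49.4-fold and 14.8-fold. All of these bounds take the Day7 reads as counted, without their counting error. They also leave out the spread among the Day7 libraries, where replicate 3 had 0 reads of Lum. The 0 of 28931821 reads at 6h allows a level of up to 0.104 on the deposited scale. The log2 difference of 2.12 (SE 0.65) had a limma adjusted p of 0.0919 (range of adjusted p over 22 alternatives 0.0183 to 0.554). It passed without Day7 replicate 3 (limma adjusted p = 0.0385), a fit that drops the Day7 library with 0 Lum reads. Without Day1 replicate 2 or Day7 replicate 1, 2 or 4, Lum no longer reached the filter (8 of 12 such fits could test it). Lum thus reached the filter mainly through Day7, where it was high, so its p-values do not count as support for a rise. Between Day1 and Day7 the log2 difference of Lum was 1.56 (SE 0.65, limma adjusted p = 0.118). Hepatocyte markers summed to 2.27 to 155 at 6h and 63.4 to 16325 at Day7, with Apob at 0 over the 6h group, and platelet markers to 227 to 25475 and 23505 to 39619. For the Day1 libraries the hepatocyte sums were 1402 to 4248 and the platelet sums 1092 to 6182. Day7 replicate 1 held both the highest Lum value and the highest hepatocyte sum (16325). Lum was 0 in Day1 replicate 4 (hepatocyte sum 4248) but 5.74 in Day7 replicate 2 (63.4), which had the highest platelet sum. It was also 0 in 6h replicate 4 and Day7 replicate 3, whose platelet sums were 25475 and 29110. The part of hepatocytes or platelets in the Lum reads was not tested.

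Dcn and Lum are neighbours in RefSeq's gene order, yet Dcn had 76492 reads over the 12 libraries and Lum 243. Per length, Lum stood at 4.42%, 12.1%, 0% and 0.746% of Dcn in Day7 replicates 1 to 4, and at most at 0.487% in any earlier library. The 0% is from Day7 replicate 3, whose 7 reads of Dcn are too few to measure such a share. Kera (keratocan) and Epyc (epiphycan), the next genes in that order and also of the family, had 0 reads in all 12 libraries.

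Osteoglycin (mimecan), the class III member, was found in bone extracts and is widespread in connective tissue. Ogn was 0, 0, 7.97 and 1.02 at 6h, 3.34, 17.4, 6.90 and 3.89 at Day1, and 3.58, 1.34, 0 and 35.6 at Day7. The highest value of all 12 libraries was thus in Day7 replicate 4, and the groups overlapped. Neither Day7 versus Day1 (log2 difference -0.74, SE 1.02, limma adjusted p = 0.648) nor Day1 versus 6h (1.85, SE 1.02, limma adjusted p = 0.501) passed. Aspn, Omd and Ogn follow each other in RefSeq's gene order, after Ecm2. Asporin, a class I member that binds TGF-beta and calcium, had 35 reads in Day7 replicate 1 and 0 in the other 11 libraries. Osteomodulin, a class II member of mineralised tissue, had 1 and 3 reads in 6h replicates 3 and 4, 1 and 10 in Day1 replicates 2 and 3, and 0 at Day7, where 0 of 37307708 reads allows a level of up to 0.123 on the deposited scale. Ogn had 989 reads in all, so these neighbours were unequally detected. Ecm2 had 141 reads in 3 libraries, 140 of them at Day1. Most of its signal was in 1 library (maximum 4.63, mean over the 12 libraries 0.469). These floors cover counting error of the groups with 0 reads only, and reads without molecular identifiers are not independent molecules.

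**Figure D5:**
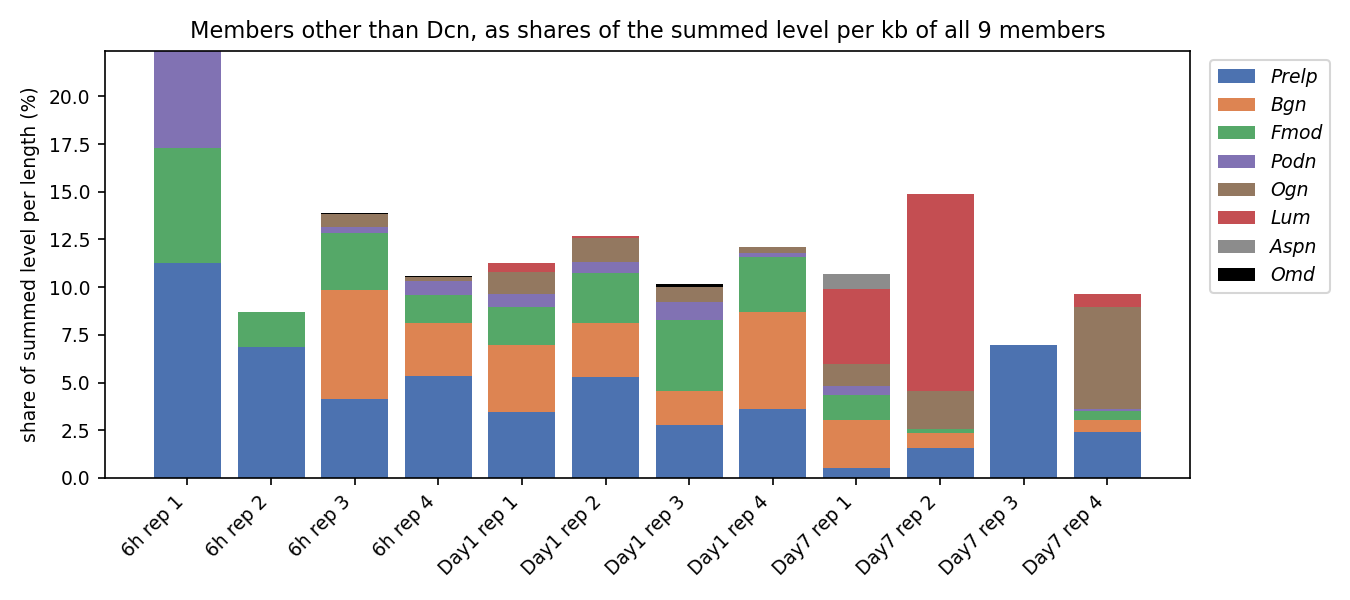
Shares of the members other than Dcn in the summed level per kb of all 9 members, stacked for each library. Lum reaches 10.3% in Day7 replicate 2 and is at 0 in all 6h libraries, and the Fmod share is 1.98% to 3.72% at Day1 and 0% to 1.33% at Day7.

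Levels relative to Dcn within a library do not depend on the scaling. Per length, Fmod stood at 2.23%, 3.00%, 4.14% and 3.29% of Dcn in Day1 replicates 1 to 4 and at 1.49%, 0.247%, 0% and 0.497% at Day7. The 0.247% rests on 1 read of Fmod. The 0% is from Day7 replicate 3, which held only 7 reads of Dcn, too few to measure a share of this size, and its 0% for Bgn has the same limit. At 6h the Fmod values were 7.75%, 2.03%, 3.47% and 1.63%. Prelp stood at 3.88%, 6.03%, 3.09% and 4.09% of Dcn at Day1 and at 0.581%, 1.83%, 7.50% and 2.68% at Day7, where the 7.50% rests on 1 read of Prelp and 7 of Dcn in Day7 replicate 3. Bgn stood at 1.97% to 5.79% of Dcn at Day1 and 0% to 2.82% at Day7. Ogn stood at 5.93% of Dcn in Day7 replicate 4, against 0.342% to 1.43% at Day1. These shares were not tested.

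From 6h to Day1, limma called 0 of 7 tested members (0.169% of all genes were called), and edgeR (0.0803%) and DESeq2 (1.76%) called 0 as well. At an unadjusted limma p under 0.05 there were likewise 0 of 7 (11.2% of all genes). All 7 limma log2 differences were above 0, as were 71.6% of those of all genes, with a median of 1.43 beside 0.52. The members' median was 0.69 in edgeR (0.17 over all genes) and 0.65 in DESeq2 (0.22), and Podn was below 0 in both. The largest in limma were Bgn (2.42, SE 1.20, limma adjusted p = 0.451), Ogn and Dcn (1.84, SE 1.21, limma adjusted p = 0.576). Bgn had 0 reads in 6h replicates 1 and 2, and its difference was only 0.41 in edgeR and 0.43 in DESeq2. Its mean value was 28.1 at 6h and 44.9 at Day1. Of the members, 0 of 7 had groups that did not overlap (5.52% of all genes were higher without overlap). Part of the 6h spread came from replicate 2, which had 28 reads of Dcn, 4 of Prelp, 1 of Fmod and 0 of the other 6 members. Without 6h replicate 2 the differences of Prelp and Podn were -0.23 and -0.40.

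From 6h to Day7, 0 of 7 passed in limma (0.883% of all genes did) and edgeR called 0 (0.749% of all genes). At an unadjusted limma p under 0.05, Lum was higher and Fmod, Prelp and Podn lower, 4 of 7 (18.0% of all genes), and DESeq2 called the same 4 (9.59% of all genes). As Lum reached the filter mainly through Day7, its place in these counts is not support for a rise. Of the 7 differences 5 were below 0 (46.2% of all genes), from -2.53 for Prelp (SE 1.03, limma adjusted p = 0.196) to -0.96 for Bgn. Fmod had -2.21 (SE 1.02, limma adjusted p = 0.253). The comparison shares its Day7 libraries with Day7 versus Day1 and its 6h libraries with Day1 versus 6h. For any change among the 3 times, 0 of 7 passed limma's moderated F test (2.55% of all genes did), edgeR (10 genes did) or DESeq2 (876 genes did). At an unadjusted F p under 0.05 there were 5 of 7 (25.5% of all genes), all but Dcn and Ogn.

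Several genes of collagens and other matrix proteins fell between Day1 and Day7. Of 21 fibrillar collagens and fibril partners 18 were tested and 8 were lower, 0 higher, beside 3.59% lower and 2.19% higher over all genes. Their median log2 difference was -3.32, beside -0.48 over all genes. Col1a2, a chain of type I collagen, was 45.2 to 305 at Day1 and 0 to 20.0 at Day7 (log2 difference -4.98, SE 1.20, limma adjusted p = 0.0282). The basement membrane and fibril proteins Fbln2 (-4.24) and Fbln1 (-4.17) and the type VI collagen chain Col6a1 (-4.11) also fell. The 8 became 0 to 16 under alternatives, 0 with edgeR (which called 0.00892% of all genes) and 12 with DESeq2 (15.8% of all genes in either direction). With 1 library left out they were 0 to 10, and they were 0 without Day1 replicate 2, 3 or 4 or Day7 replicate 3, 1 without Day7 replicate 2 and 3 without Day7 replicate 4. In the first 4 of these fits, in edgeR, with no filter and with the Y-linked term, 0 members of any of this and the 5 lists that follow passed.

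Genes that make the sugar chains, receive signals from these proteins or are bound by them were followed in further lists. Of 32 enzymes that build or sulfate glycosaminoglycan chains 27 were tested, and limma called 0 of them between Day1 and Day7 (5.78% of all genes). At an unadjusted limma p under 0.05 there were 8, a share near the 29.1% of all genes. Of the 27, edgeR called 0 (0.00892% of all genes) and DESeq2 3 (15.8%). Their median log2 difference was -0.80, beside -0.48 over all genes. Chst12, a chondroitin sulfotransferase, had a Day1 mean of 52.9 ± 28.1 and a Day7 mean of 245 ± 134 (SD, n = 4), with a limma adjusted p of 0.126. For B4galt1, a galactosyltransferase, the means were 35.8 ± 13.6 and 82.6 ± 66.0 (limma adjusted p = 0.390). Of 14 tested receptors and signalling partners 2 fell and 1 rose, beside 3.59% and 2.19% of all genes. Tgfbr2, a TGF-beta receptor, fell (-3.98, limma adjusted p = 0.0347), Lrp1, an endocytic receptor for decorin, fell (-3.22, limma adjusted p = 0.0499), and the integrin chain Itgb1 rose (2.82, limma adjusted p = 0.0458). Tgfb1, a growth factor that decorin, biglycan and fibromodulin bind, rose by 2.97 on the log2 scale (limma adjusted p = 0.0458), with libraries at 13.0 to 22.7 on Day1 and 99.4 to 195 on Day7, and was the 1 call among 10 tested growth factors (2.19% of all genes were higher). Platelet markers were higher at Day7 too: they summed to 1092 to 6182 in Day1 libraries and 23505 to 39619 in Day7 libraries, and 6 of 10 rose. Their part in the values of Tgfb1 and Itgb1 was not tested. Pdgfa averaged 44.2 ± 21.2 and 125 ± 43.2 (SD, n = 4) and did not pass.

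Of 11 tested proteases and their regulators 3 fell, beside 3.59% of all genes. Pcolce, an enhancer of procollagen cleavage, had libraries at 38.1 to 276 on Day1 and 0.617 to 11.7 on Day7 (-4.12, limma adjusted p = 0.0177). Adamts1, a metalloproteinase that cleaves proteoglycans, was 6.43 to 32.1 and then at most 0.344 (-3.77), and Timp2, an inhibitor, fell by 3.70 on the log2 scale. Of 11 other leucine-rich repeat matrix genes 4 had 0 reads (Kera, Epyc, Optc and Nepn) and 1 was tested, Chadl, a chondroadherin-like gene, at 0.494 to 9.11 at Day1 and at most 0.206 at Day7 (-2.34, limma adjusted p = 0.0779). Chad (chondroadherin), a cartilage protein, had 1179 reads in 2 Day1 libraries and 0 in the other 10. Nearly all of its signal was in 1 library (maximum 45.8, mean over the 12 libraries 3.82). From 6h to Day1 and from 6h to Day7, limma called 0 members of any of these 6 lists. At an unadjusted limma p under 0.05 a list had 0 to 4 of its 1 to 27 tested members from 6h to Day1 (11.2% of all genes) and 1 to 6 from 6h to Day7 (18.0% of all genes). In edgeR there were 0 and 0 to 1 (0.0803% and 0.749% of all genes), and in DESeq2 0 and 0 to 7 (1.76% and 9.59%).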

How the data were processed

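Total RNA of iChip-enriched blood was measured in 12 libraries, grouped by the sample titles. Per the submitters' processing notes the tools included STAR 2.7.10 and HTSeq 2.0.1, with build mm9. No source used here gives the annotation or the scaling step. The values deposited by the authors are a scaled signal per gene, named CPM in the table's name, but their columns have unequal sums (351981 to 5611145). At least 99.997% of values in each column were whole multiples of the value of 1 read (within 0.001 reads), so reads were recovered by division. The Length column, in bases, was also deposited by the authors. Gene names, promoters and gene order came from RefSeq on GRCm38.p6, another build than mm9, so no gene positions in the files' build are given.

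Genes that reached a value of 1 in 4 or more libraries were fitted with limma 3.58.1 (R 4.3.3, trended variance) on log2(value + 1), with all 12 libraries and the time as sole factor. This scale understates changes of low genes. Alternatives were edgeR 4.0.16 and DESeq2 1.42.0 on recovered reads and other pseudocounts, filters, scalings, weights, covariates and sets of libraries. All 9 members are named. From each of 6 lists, up to 4 called genes with the largest change between Day1 and Day7 are named, or the 2 most abundant where fewer than 2 were called, and 3 genes of like pattern per tested member. Ecm2 and Chad were named after their values were seen. Members and lists were chosen with earlier results of these data known.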

Additional observations from a re-analysis of the deposited data

Results flagged for a closer look

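In 23 sets of 4 libraries (a member at 1 time) with unequal values, 6 held a library whose gap to the nearest other was large enough for Dixon's test at the 95% level. Chance alone gives about 1 in 20 for independent sets of normally distributed values. These sets share libraries and hold many zeros, so the 2 numbers are not comparable. Fmod was low in Day1 replicate 1 (7.42, next 44.6), the 1 Day1 library without Y-linked reads. Ogn was high in 6h replicate 3 (7.97, next 1.02) and in Day7 replicate 4 (35.6, next 3.58). Prelp was high in Day7 replicate 4 as well (23.3, next 2.41). Aspn was read in Day7 replicate 1 alone (2.41, from 35 reads), and 3 zeros beside 1 value always give such a gap. Omd was high in Day1 replicate 3 (0.758, from 10 reads).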

How the results depend on the processing

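No tested member passed from 6h to Day1 under any of 27 alternatives. Between Day1 and Day7, 1 member was called, beside 5.78% of all genes in either direction. The count became 5 scaled to all reads (35.3% of all genes) and 5 scaled to reads outside haemoglobin (31.7%). With array weights 5 passed (Lum higher, 4 lower, beside 24.8% of all genes), and with only the 2 groups compared 4 (17.0%). DESeq2 called 3 (15.8%), and 2 passed with a mean of at least 10 (12.5%) or with median-of-ratios scaling (6.99%). The count was 0 in edgeR (0.00892%), with no filter (0.284%) or with a term for Y-linked reads (0%). Without the 2 libraries with the fewest genes it was 1, Lum in place of Fmod (3.79% of all genes). From 6h to Day7 the count of 0 became 4 in DESeq2 (9.59% of all genes). It became 1 (Lum) with array weights (7.23%) or without those 2 libraries (0.884%). The calls of Lum rest on a filter that it passed mainly through Day7. For any change among the 3 times the count of 0 became 5 scaled to all reads (2960 genes passed), outside haemoglobin (2484) or with array weights (2116). It became 1 without those 2 libraries (185 genes passed). With single libraries left out the counts ran from 0 to 0 for Day1 versus 6h, 0 to 2 for Day7 versus Day1, 0 to 1 for Day7 versus 6h and 0 to 2 for any time. With the replicate number as a block, 2 members passed between Day1 and Day7 (Fmod and Prelp, beside 5.09% of all genes) and 0 elsewhere. Same-numbered libraries deviated from their group means with r of -0.23 to 0.12, and pairs of other numbers with -0.22 to 0.26. The labels do not say whether equal numbers share a mouse or batch, and these r values cannot decide it.

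Directions that reversed, none of them passing a test, were Bgn from 6h to Day7 (0.98 with the Y-linked term, -1.87 to 0.30 with 1 library left out, the latter without 6h replicate 3), Dcn from 6h to Day7 (0.32 with that term, -2.39 to 0.10 with 1 library left out, the latter without Day7 replicate 3, 0.15 without the 2 libraries with the fewest genes), Ogn between Day1 and Day7 (0.42 in edgeR, 0.49 with that term), Podn from 6h to Day1 (-0.24 in DESeq2, -0.15 in edgeR, -0.40 to 1.25 with 1 library left out, the former without 6h replicate 2) and Prelp from 6h to Day1 (-0.23 to 1.39 with 1 library left out, the former without 6h replicate 2). The causes were not tested. Over all genes the 648 calls between Day1 and Day7 became 57 with no filter, 1 in edgeR, 1776 in DESeq2, 1901 with only the 2 groups, 2779 with array weights, 3963 scaled to all reads, 3549 outside haemoglobin, 0 with the Y-linked term (1774 at an unadjusted p under 0.05), 416 without the 2 libraries with the fewest genes and 3 to 1185 with 1 library left out. The 19 from 6h to Day1 ranged from 0 (no filter, pseudocount 4) to 1207 (all reads), the 99 from 6h to Day7 from 0 (all reads) to 1075 (DESeq2), and the 286 of the F test from 10 (edgeR) to 2960 (all reads). Lists between Day1 and Day7 ranged from 0 to 16 fibril, 0 to 10 chain enzyme, 0 to 6 receptor, 0 to 4 growth factor and 0 to 9 protease members. Members with few reads, such as Aspn (35) and Omd (15), are limited by depth.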
